A study of Mus musculus with 103 samples.

Results

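Mup3, Hsd3b5, Elovl3, Slco1a1, Cyp4a12a, Cyp7b1, Serpina12 and Sult2a8 are genes of mature mouse liver cells that are known to depend on growth hormone. These 8 genes, of 17097 measured, were chosen by name, with earlier results of the same arrays in view, for their low levels in newborn and DDC-treated liver against untreated liver. Their values in those comparisons are therefore a description without a test. They lie on 12 probe sets, and each gene is given by its brightest one. No sample had its growth hormone changed, so dependence on the hormone was not measured. The levels bear out the rest of the name in part: 6 of the 8 genes had their highest group mean in untreated liver, while Elovl3 and Serpina12 reached it in tumours.

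The study followed cells that express Prom1, the gene of the membrane protein Prominin1, through lineage tracing and oncogenic targeting in mice, and measured 103 samples in 29 groups on Affymetrix mouse genome arrays. Cells bound by magnetic beads against Prominin1 came from untreated liver (n = 5), liver treated with DDC, a chemical that damages liver and bile ducts (n = 9), newborn liver (n = 3), kidney and lung (n = 4 each), prostate, salivary gland and small intestine (n = 3 each), stomach (n = 2) and uterus (n = 4). Dissected liver tumours were labelled hepatocellular carcinoma/cholangiocarcinoma (HCC/CC, n = 14) and hepatoblastoma (n = 2), with 2 metastases of the first kind, in intestine and lung, and 1 of the second, in lung. The other primary tumours were squamous cell carcinomas labelled perineal (n = 4), perioral (n = 3) and periorbital (n = 1), adenomas of the large intestine (n = 5), small intestine (n = 3) and stomach (n = 7), and carcinomas of stomach (n = 4), lung (n = 2), prostate (n = 8) and uterus (n = 3), beside 4 metastases of gastric and uterine tumours. The labels name no strain, allele, sex, age, dose or duration. They do not tie samples to animals either, and every p-value therefore reflects only how much these samples vary, which may be technical.

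Growth hormone reaches the hepatocyte in pulses in male rodents and more steadily in females. Its receptor, Ghr, works through the kinase Jak2 and the factor Stat5b, which switches on male-biased genes, while Bcl6 and Cux2 repress opposite parts of this programme. The sex difference arises at puberty, so male-biased genes are known as late genes of liver development. The products of the 8 genes are a secreted carrier protein (Mup3), enzymes of steroids, oxysterols and bile acids (Hsd3b5, Cyp7b1, Sult2a8), enzymes of fatty acids (Elovl3, Cyp4a12a), an uptake transporter of organic anions (Slco1a1) and a secreted serine protease inhibitor, vaspin (Serpina12).

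All values are log2 levels as deposited. A level of about 4.0 or below, near the 40th percentile of the arrays, is called low here because probe sets there lie near background, and a difference against such a level is a lower bound. Several facts of the samples touch every liver result. The untreated liver samples held hepatocyte RNA, with Alb (albumin) at 13.70 ± 0.13 (SD, n = 5) and a mean over 13 hepatocyte markers between 10.90 and 12.48, but Prom1 itself, the target of the sort, was low there (3.45 ± 0.67, SD, n = 5). Alb lies near the highest value on the arrays, 14.36, so it can miss a change in hepatocyte RNA. Untreated samples 1 and 2 had a mean of 11.39 over 10 endothelial markers, against 7.37 to 8.66 in samples 3 to 5. Sample 1 or 2 was the lowest of the 5 for each of the 8 genes. The transcripts linked to the sex chromosomes also differed: Y-linked genes without Xist were detected in all 5 untreated samples, in 8 of 9 DDC samples and in both hepatoblastomas, Xist without Y-linked genes in DDC sample 5 and in 12 of 14 HCC/CC tumours, and both kinds in all 3 newborn samples. Most of the 8 genes are known as male-biased in liver, so these values are given beside the results they touch.

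In untreated liver all 8 genes were well above the low range, and in newborn liver 5 of them were low in every sample. Mup3 measured 13.05, 13.49, 13.43, 13.70 and 13.56 in the 5 untreated samples and 3.53, 3.08 and 3.16 in the 3 newborn ones. This is the widest gap of the set, a difference of -10.19 ± 0.64 (SE), and the groups lie far apart. Hsd3b5, which reduces steroids in male liver, measured 10.45, 9.44, 10.91, 10.77 and 10.58 in untreated and 2.78, 3.34 and 3.17 in newborn liver. Elovl3, an elongase of saturated fatty acids, measured 8.36, 9.45, 10.76, 11.56 and 10.27 against 3.16, 2.99 and 3.05. Slco1a1 measured 9.24, 8.67, 10.83, 10.92 and 10.19 against 3.29, 3.50 and 3.23. Serpina12 measured 9.33, 7.81, 10.27, 9.91 and 9.37 against 2.81, 2.73 and 2.85. All newborn samples were in the low range for these 5 genes, so the gaps of Mup3, Hsd3b5 (-7.34 ± 0.23), Elovl3 (-7.01 ± 0.35), Slco1a1 (-6.63 ± 0.31) and Serpina12 (-6.54 ± 0.66) are lower bounds (each ± SE).

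The other 3 genes were detected in newborn liver. Cyp4a12a, a hydroxylase of fatty acids, measured 5.25, 4.23 and 4.85 there, and Cyp7b1, which hydroxylates oxysterols on the way to bile acids, 5.74, 5.87 and 5.63, both far under their untreated means of 10.73 and 11.21. Sult2a8, a sulfotransferase of bile acids, was the exception of the set. It measured 8.61, 10.16 and 7.87 in newborn liver against 11.42, 9.43, 10.84, 11.36 and 11.65 in untreated liver, a difference of -2.06 ± 0.44 (SE), and newborn sample 2 lay above untreated sample 2. The other 7 genes did not overlap between the groups. Over all 8 genes the median difference was -6.59, against 0.31 over all 11197 genes tested, of which 8.63% were called lower and 22.0% higher. A call needs an adjusted p under 0.05 and a log2 difference of at least 1. Since this comparison chose the genes, nothing is read from these shares or from the lack of overlap, whose share over all genes was not counted. Alb stood at 13.96 ± 0.22 (SD, n = 3) in newborn liver, and 11 of the 13 hepatocyte markers did not pass the test. The exceptions were Apoc3 (-2.89 ± 0.38) and Tat (-2.35 ± 0.72), the latter lost without newborn sample 3, and all 7 cholangiocyte markers measured were higher. In bulk RNA, fewer cells of a type and less RNA per cell cannot be told apart.

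**Figure D1:**
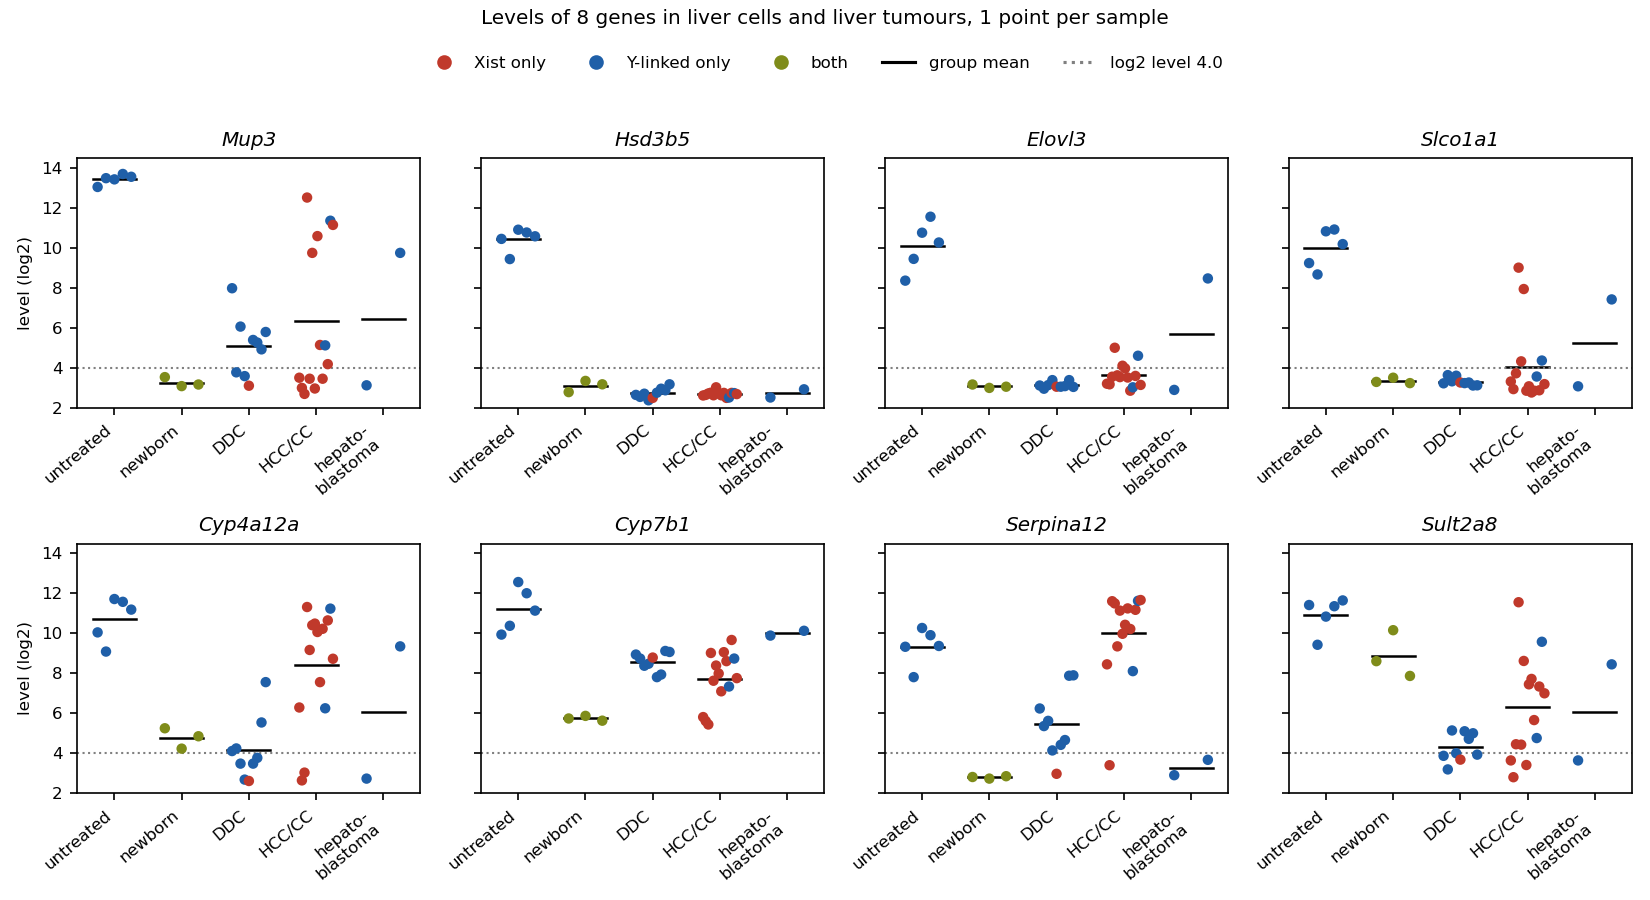
Level (log2, vertical axis) of each of the 8 genes in every sample of untreated, newborn and DDC-treated liver cells, HCC/CC and hepatoblastoma; points are samples coloured by the sex-linked transcripts detected, black lines are group means and the dotted line marks a log2 level of 4.0. Hsd3b5 lies between 2.37 and 3.34 in every sample outside untreated liver, while Serpina12 is as high in most HCC/CC tumours as in untreated liver.

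DDC treatment split the set. Hsd3b5, Elovl3 and Slco1a1 were low in all 9 DDC samples, with medians of 2.70 (range 2.37 to 3.17), 3.08 (2.95 to 3.38) and 3.26 (3.11 to 3.63). No DDC sample came near the untreated range for any of these genes. Mup3 was above the low range in 6 of 9 samples (lowest 3.10, median 5.26, highest 7.98), Sult2a8 in 4 (3.19, 4.00 and 5.14) and Cyp4a12a in 4 (2.61, 3.77 and 7.56). Serpina12 was above the low range in 8 of 9 samples (2.97, 5.36 and 7.90), and samples 8 and 9, at 7.88 and 7.90, lay inside the untreated range. Cyp7b1 had the smallest gap: its 9 values ran from 7.81 to 9.12 with a median of 8.74, all below the lowest untreated value of 9.94, a difference of -2.62 ± 0.36 (SE). The other differences from untreated liver lay between -3.87 ± 0.50 (Serpina12) and -8.35 ± 0.49 (Mup3), each ± SE.

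For 7 of the 8 genes every DDC sample was below every untreated sample. This comparison chose the genes, and in it 5.49% of 10919 genes were called lower and 16.2% higher. A call is another measure than a lack of overlap, whose share over all genes was not counted, so nothing is read from the count. The median difference of the set was -6.66, against 0.25 over all genes tested. In the hepatocyte list 0 of 13 markers were called in either direction, and Alb stood at 13.87 ± 0.20 (SD, n = 9). The hepatocyte list mean was uneven, from 10.15 in DDC sample 2 to 12.46 in sample 3, against 10.90 to 12.48 in untreated liver. Sample 2 still had Alb at 13.50. Of 6 cholangiocyte markers tested 4 were higher after DDC, with Epcam at 2.55 ± 0.65 and Cldn4 at 2.07 ± 0.43 (difference ± SE), and the list mean ran from 3.18 to 7.08, against 3.48 to 3.95 in untreated liver. Prom1, the target of the sort, was 7.04 ± 2.27 after DDC (SD, n = 9) and 10.29 ± 0.08 in newborn liver (SD, n = 3), against 3.45 untreated. The part of these differences in the levels of the 8 genes was not tested. The endothelial list was uneven in both groups, above 10.5 in DDC samples 1, 2, 4 and 5. In DDC samples 3, 6, 7 and 8, where it lay between 7.86 and 8.19, in the range of untreated samples 3 to 5, Mup3 measured 6.06, 5.39, 5.26 and 4.92, against 13.43, 13.70 and 13.56 in those untreated samples. The 1 DDC sample with Xist, sample 5, had the lowest Mup3 (3.10), Cyp4a12a (2.61) and Serpina12 (2.97) of the 9. Without it the difference of Mup3 was -8.10 and that of Serpina12 -3.56, and the 8 remaining samples carry Y-linked transcripts as the untreated ones do.

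The growth hormone receptor pathway itself was called about as often as other genes in newborn liver. There 2 of the 13 tested were higher, the repressor Cux2 (2.48 ± 0.36) and the feedback inhibitor Socs2 (1.76 ± 0.35), and 2 lower, the repressor Bcl6 (-3.33 ± 0.37) and Igf1, the circulating mediator of the hormone (-1.02 ± 0.42). The call of Igf1 was lost in 10 of 18 alternative settings. After DDC 0 of 13 were higher and 2 lower, the receptor Ghr (-1.57 ± 0.42, limma adjusted p = 0.00317) and Socs3 (-1.27 ± 0.42), the latter lost without untreated sample 2.

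Of 11 genes known as female-biased that were tested in newborn liver, where both kinds of sex-linked transcripts were detected, 9 were higher and 1 lower, led by Cyp3a16 (7.96 ± 0.18), Sult2a2 (7.83 ± 0.52) and Hao2 (6.74 ± 0.41). After DDC 5 of 8 were higher and 1 lower. Abcd2, a peroxisomal transporter, differed by 2.96 ± 0.27 and Cyp2b10, a cytochrome induced by foreign compounds, by 3.55 ± 0.69, while Cyp4a10 was lower (-2.50 ± 0.63). Among 7 tested genes of a further list of male-biased genes, 6 were lower in newborn liver, with C6, a complement component, at -4.27 ± 0.66, and 3 after DDC, with Susd4 at -2.49 ± 0.43. The part of sex in the newborn differences was not tested further. After DDC, Abcd2 and Cyp2b10 stayed called without sample 5. All differences of this paragraph and the last are log2 ± SE from the limma fit.

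Promoter sequences from RefSeq (build GRCm38.p6) were at hand for 5 of the 8 genes, in 6 windows from 250 bases before to 50 after a start site. The palindrome TTCNNNGAA bound by STAT5 was in 0 of the 6 windows and in 8.30% of 32851 promoter windows of the same length. The core ATTGAT, or ATCAAT on the other strand, bound by HNF6, the product of the pathway gene Onecut1, was in 2 of the 6 and in 7.54% of all. Mup3 held it at 162 and 100 bases before the start and the second window of Sult2a8 at 147 and 114. The core CAAAGTCCA of HNF4A sites (or TGGACTTTG) was in 0 of 6 and in 0.475% of all. A match is a description of letters, not of binding. Shown are the 200 bases before the start of the windows with the HNF6 core, in capitals, and of Hsd3b5, the gene that was low in every sample outside untreated liver, whose window holds none of the motifs. They lie on the minus strand at chr4:62087318-62087517 (Mup3), chr7:14438552-14438751 (Sult2a8) and chr3:98645535-98645734 (Hsd3b5).
Mup3: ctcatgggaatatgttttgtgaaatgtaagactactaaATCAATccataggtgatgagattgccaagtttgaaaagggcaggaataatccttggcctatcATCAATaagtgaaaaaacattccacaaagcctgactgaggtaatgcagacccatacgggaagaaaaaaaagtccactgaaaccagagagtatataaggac
Sult2a8: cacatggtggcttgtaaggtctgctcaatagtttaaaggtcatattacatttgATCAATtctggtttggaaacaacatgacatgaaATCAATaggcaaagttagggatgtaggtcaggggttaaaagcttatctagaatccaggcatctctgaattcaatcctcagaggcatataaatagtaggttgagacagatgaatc
Hsd3b5: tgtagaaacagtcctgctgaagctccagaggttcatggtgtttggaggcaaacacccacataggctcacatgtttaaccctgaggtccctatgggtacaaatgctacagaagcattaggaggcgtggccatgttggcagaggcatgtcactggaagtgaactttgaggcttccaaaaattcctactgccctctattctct

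In the HCC/CC tumours Hsd3b5 was low throughout, Mup3, Slco1a1 and Sult2a8 were high in some tumours, and Serpina12 was as high as in untreated liver or higher in most. Hsd3b5 was in the low range in all 14 tumours (lowest 2.49, median 2.70, highest 3.02). Elovl3 was above 4.0 in 3 (2.85, 3.54 and 5.0) and Slco1a1 in 4 (2.76, 3.25 and 9.01). For Slco1a1 only tumours 4 and 6, at 9.01 and 7.94, were far above the rest, and tumour 4 alone lay in the untreated range. Mup3 fell into separate clusters: tumours 4, 6, 8, 13 and 14 measured 12.52, 9.75, 10.59, 11.36 and 11.15, while the other 9 lay between 2.69 and 5.14. No tumour reached the lowest untreated Mup3 value of 13.05.

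Cyp4a12a was above the low range in 12 of 14 tumours (2.64, median 9.62, highest 11.32) and 8 of them lay inside the untreated range. Tumours 2 and 3 were low, at 2.64 and 3.03. Cyp7b1 was detected in every tumour (5.44, 7.88 and 9.67), all below untreated liver. Sult2a8 spread over the whole scale (2.80, 6.33 and 11.56), with tumours 4 and 13, at 11.56 and 9.58, inside the untreated range. For Serpina12 13 of 14 tumours were above the low range (3.40, 10.78 and 11.67), 5 lay in the untreated range and 8 above its top value of 10.27. Tumour 2 was the exception.

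Set against untreated liver, the differences were -7.74 ± 0.18 for Hsd3b5, -7.10 ± 1.63 for Mup3, -6.45 ± 0.59 for Elovl3, -5.92 ± 0.90 for Slco1a1, -4.62 ± 1.14 for Sult2a8, -3.48 ± 0.61 for Cyp7b1, -2.29 ± 1.32 for Cyp4a12a and 0.66 ± 0.94 for Serpina12 (log2 ± SE, no test). In 4 of the 8 genes every tumour was below every untreated sample. This comparison shares the untreated samples which chose the genes, and in it 6.20% of 11101 genes were called lower and 17.2% higher. The share of all genes with such a lack of overlap was not counted, so nothing is read from the count. Sorted cells and dissected tumours also differ in how RNA was extracted, which cannot be told apart from the tumour. In the hepatocyte list 0 of 13 markers were called in either direction (limma), and Alb was 13.88 ± 0.24 (SD, n = 14), but 8 of 10 endothelial markers were lower in the tumours. The 2 tumours with Y-linked transcripts, 11 and 13, measured 2.51 and 2.73 for Hsd3b5, 3.02 and 4.60 for Elovl3 and 3.56 and 4.36 for Slco1a1, within the range of the 12 with Xist. Mup3 was 5.12 and 11.36 in these tumours, so that its difference from untreated liver was -5.20 in them and -7.42 in the others.

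**Figure D2:**
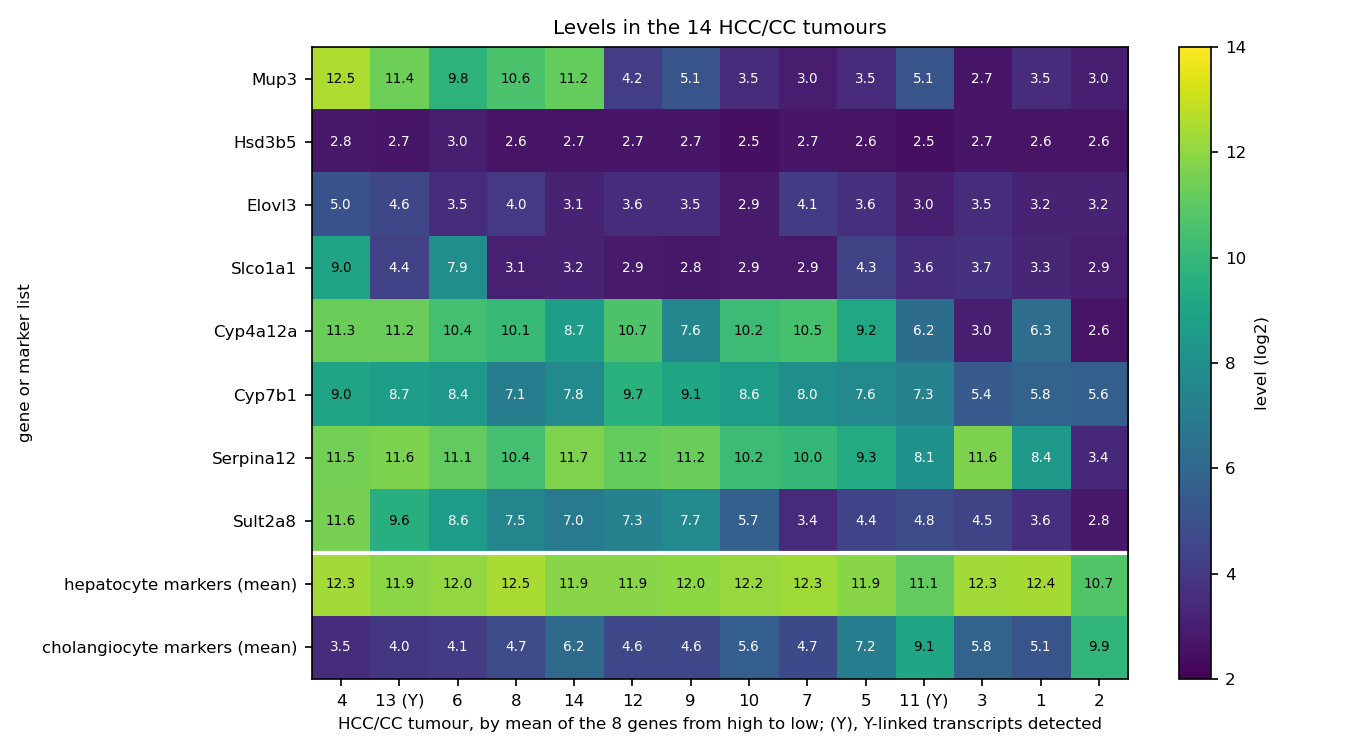
Level (log2, colour and printed value) of the 8 genes and the mean level of 13 hepatocyte and 7 cholangiocyte markers in the 14 HCC/CC tumours, ordered by the mean of the 8 genes; (Y) marks tumours with Y-linked transcripts. Hsd3b5 is low throughout, Mup3 is high in 5 tumours, and tumour 2, with the highest cholangiocyte mean of 9.92, has the lowest Cyp4a12a, Serpina12 and Sult2a8.

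Of the pathway genes 1 of 13 was higher in HCC/CC than in untreated liver, the IGF carrier Igfbp3 (3.94 ± 0.76), and 1 lower, Socs3 (-3.04 ± 0.51). Among female-biased genes 5 of 12 were higher and 0 lower, with Sult2a2 at 4.44 ± 1.23, Cyp17a1 at 3.76 ± 0.62, Abcd2 at 3.58 ± 0.71 and Cyp3a41a at 3.47 ± 1.11. With the sex-linked transcripts as a covariate Sult2a2, Abcd2 and Cyp3a41a were no longer called and Cyp17a1 was. Of 8 further male-biased genes 0 were higher and 4 lower, led by Susd4 (-2.65 ± 0.59), whose call was also lost with that covariate. With tumours 11 and 13 alone against untreated liver, 109 genes of any kind were called in place of 2598, and none of the list genes named in this paragraph was among them. Only 2 tumours remain there, so a lost call is not a lost difference. Igfbp3 measured 10.57 and 7.04 in them, against 4.31 to 6.20 in untreated liver. Socs3 measured 7.83 and 4.89, against 7.39 to 10.43.

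Genes and tests were chosen with earlier results of these arrays known, so the p-values below may not be independent of them. The first comparison that did not choose the genes set HCC/CC against 39 tumours of the 9 groups outside liver with over 1 sample. The single periorbital carcinoma was therefore left out, although its Cyp4a12a (8.64), Cyp7b1 (8.13) and Serpina12 (7.50) were well above the low range. Of the 8 genes 6 passed the filter on low values, 5 of them with a mean above it in HCC/CC, and 5 were called higher and 0 lower. Sult2a8 and Cyp4a12a, both among these 5, passed only through HCC/CC, where they are high. The filter thus fixed their direction, and nothing is read from the count. Their p-values are given from the fit with no filter, over all 17097 genes. Of 12662 genes tested with the filter 11.8% were called higher and 14.4% lower. Serpina12 ranged from 2.53 to 10.92 (median 2.82) in the 39 other tumours against a mean of 9.99 in HCC/CC, a difference of 6.02 ± 0.46 (limma adjusted p = 4.5e-16). Only squamous carcinomas of skin overlapped with the HCC/CC tumours for it, apart from the low tumour 2. Cyp4a12a ranged from 2.29 to 5.76 (median 2.60) in the 39 other tumours and was 5.56 ± 0.55 higher in HCC/CC (limma adjusted p = 3.2e-12 with no filter). Sult2a8 was low in all 39 other tumours, 2.44 to 3.15, and 3.54 ± 0.46 higher in HCC/CC (limma adjusted p = 4.6e-09 with no filter), although 3 HCC/CC tumours were themselves low.

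Cyp7b1 was more widely present. It was above 4.0 in 27 of the 39 other tumours (2.87, median 5.48, highest 8.16) and 2.34 ± 0.30 higher in HCC/CC (limma adjusted p = 2.2e-09), with the groups overlapping. For Mup3 the difference of 2.30 ± 0.73 (limma adjusted p = 0.0047) came with 5 HCC/CC tumours above every other tumour, whose range was 2.75 to 9.34, and 9 at 5.14 or below. Elovl3 differed by -0.83 ± 0.23 (limma adjusted p = 0.0011), under the size required for a call, with all 7 squamous tumours far above HCC/CC. Only through these squamous groups did Elovl3 pass the filter, which fixed its direction, so nothing is read from its p. In the 32 tumours outside liver and skin its median was 3.20, against 3.54 in HCC/CC. Hsd3b5 and Slco1a1 did not pass the filter and were low in all 39, at 2.38 to 3.17 and 2.74 to 3.97. Of 12 pathway genes tested 4 were higher in HCC/CC, the IGF carrier subunit Igfals (3.75 ± 0.24), Onecut1 (3.25 ± 0.17), Ghr (2.62 ± 0.27) and Igf1 (2.23 ± 0.33), and 1 lower, Socs3 (-1.07 ± 0.26). All 13 hepatocyte markers were higher as well, as were 6 of 8 further male-biased and 12 of 12 female-biased genes tested, with 0 of any of these lists lower. Listed genes that are low outside liver, such as the male-biased Ugt2b1, passed the filter only through HCC/CC. The filter fixed their direction, and how many they are was not counted, so nothing is read from these list counts. With the sex-linked transcripts as a covariate Mup3 differed by 2.62 (limma adjusted p = 0.00449) and the same number of genes was called.

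**Figure D3:**
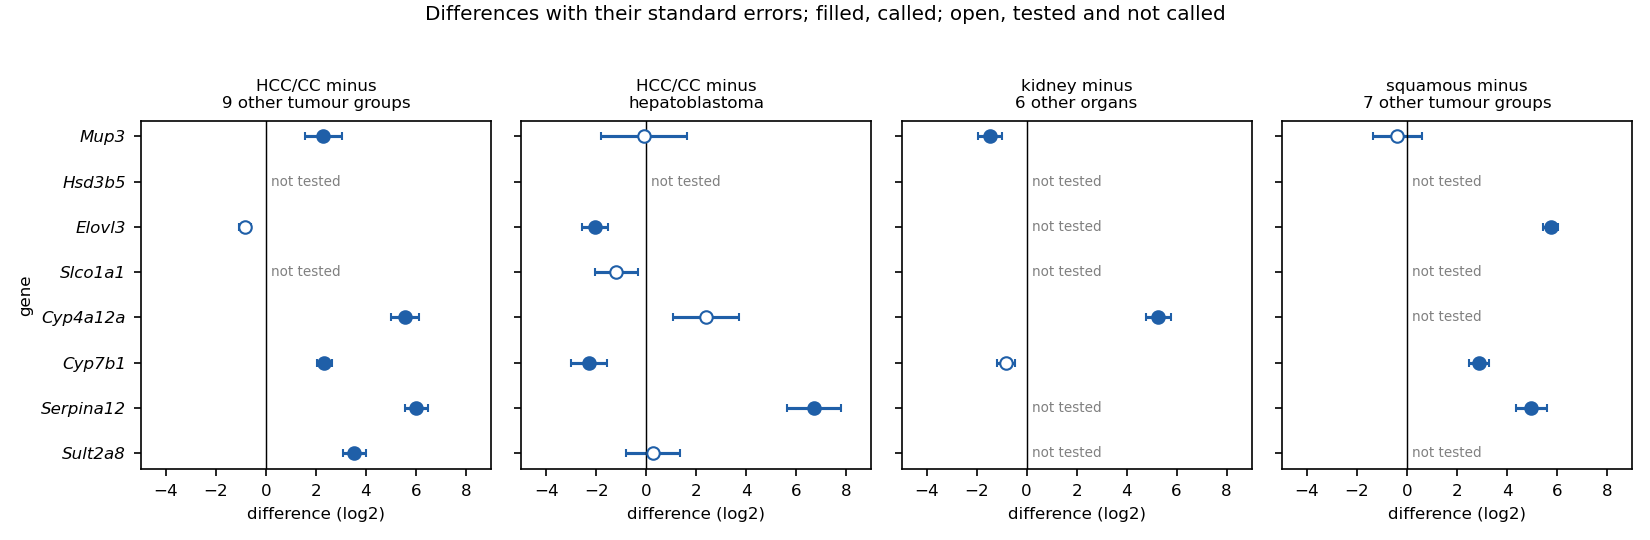
Log2 difference (horizontal axis) with its standard error for each of the 8 genes in the 4 comparisons that did not choose the genes. Filled points were called with the filter, open points were tested and not called. The filter fixed the direction of Sult2a8, Cyp4a12a and Elovl3 in HCC/CC against other tumours, and of Serpina12, Elovl3 and Slco1a1 against hepatoblastoma. It also fixed that of Serpina12 and Elovl3 in squamous carcinomas and of Mup3 and Cyp7b1 in kidney. Serpina12 is higher in HCC/CC than in both other tumour sets, and Cyp4a12a alone is higher in kidney.

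Between the liver tumour kinds 3 of the 7 genes that passed the filter were called. Serpina12 measured 2.90 and 3.67 in the 2 hepatoblastomas, below 13 of the 14 HCC/CC tumours, and was 6.71 ± 1.09 higher in HCC/CC (limma adjusted p = 4.3e-05 with no filter), where 2.82% of 10808 genes tested with the filter were called higher and 3.27% lower. Serpina12 passed the filter only through HCC/CC, and Elovl3 and Slco1a1, the latter not called, only through hepatoblastoma. The filter thus fixed their direction, so nothing is read from the count of 3. Serpina12 and Elovl3 are given with no filter. Against the 2 HCC/CC tumours with Y-linked transcripts, as both hepatoblastomas have, Serpina12 still differed by 6.59 (limma adjusted p = 5.9e-05). Elovl3 measured 2.89 and 8.47 in hepatoblastoma and was called lower in HCC/CC (-2.05 ± 0.53, limma adjusted p = 0.0132 with no filter), with only hepatoblastoma 2 above the low range. It was not called with only these groups in the fit (limma adjusted p = 0.247). Cyp7b1 measured 9.89 and 10.13, above all 14 HCC/CC tumours, and was called lower in HCC/CC (-2.29 ± 0.71, limma adjusted p = 0.03). That call was lost without either hepatoblastoma (limma adjusted p = 0.147 and 0.142) and with the sex-linked transcripts as a covariate (0.0588).

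The hepatoblastomas differed from each other over most of the set. Mup3 measured 3.12 in the first and 9.75 in the second, Slco1a1 3.07 and 7.42, Cyp4a12a 2.73 and 9.35, and Sult2a8 3.64 and 8.45. Hsd3b5 was low in both, at 2.51 and 2.92. The median difference of the 8 genes from untreated liver was -4.81 with both tumours, -2.52 without the first and -7.24 without the second. Both tumours were below every untreated sample in 5 of the 8 genes. In that comparison 1.39% of 11005 genes were called lower and 6.49% higher. A call is another measure than a lack of overlap, whose share over all genes was not counted, so nothing is read from the count. The hepatocyte marker means of the hepatoblastomas were 11.45 and 12.06, both within the range of untreated liver. Most single markers lay inside their untreated ranges, but some did not. Apoc3 (9.91) and Cps1 (9.27) in the first were below their lowest untreated values of 12.42 and 11.13. Serpina1a (10.93) in the second was below 12.35. Of the pathway genes 0 of 13 were called between HCC/CC and hepatoblastoma in either direction.

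The 3 metastases of liver tumours were single samples, with no replicate. The HCC/CC metastasis in intestine measured 8.37 for Serpina12, 7.97 for Cyp4a12a, 6.76 for Cyp7b1 and 4.70 for Sult2a8, and the one in lung 6.32, 4.94, 6.26 and 2.87. Hsd3b5, Elovl3 and Slco1a1 were low in both. The hepatoblastoma metastasis in lung measured 10.33 for Cyp7b1, 8.05 for Sult2a8 and 6.29 for Cyp4a12a, with Serpina12 low at 2.87, as in both primary hepatoblastomas.

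Within the 14 HCC/CC tumours the levels of the genes present in most of them were set against each other. Of 28 pairs, 6 had no gene in separate clusters or with a median in the low range, and Pearson r is given only for these. All 6 correlations were positive. Cyp4a12a and Cyp7b1 varied together (Pearson r = 0.82, permutation p = 4.8e-04, adjusted over 28 pairs 0.00672; Spearman rho = 0.75, permutation p = 0.00274, adjusted 0.0384). Without tumours 2 and 3, farthest from the median of Cyp4a12a, r was 0.62 and no longer passed (permutation p adjusted 0.158), so the call rests on those tumours. Within the 12 tumours with Xist it was 0.82 (permutation p adjusted 0.0239). The other 5 pairs had r from 0.57 to 0.69 and permutation p-values adjusted to between 0.0545 and 0.068, none of which passed.

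Markers of cholangiocytes, the cells that line bile ducts, ran against several of the genes. The mean of 7 cholangiocyte markers lay between 3.51 and 9.92, with tumours 2 and 11 highest, and the mean of 13 hepatocyte markers between 10.74 and 12.49. Of 24 relations, adjusted together, 12 are given. Serpina12 and the cholangiocyte mean had r = -0.81 (permutation p = 0.00127, adjusted 0.0305) and rho = -0.53 (permutation p = 0.0508, adjusted 0.174), but r = -0.36 without tumours 2 and 11, on which the relation rests. For Sult2a8 r was -0.67 (permutation p = 0.00761, adjusted 0.0722), rho -0.76 (permutation p = 0.00202, adjusted 0.0242) and r again -0.67 without those tumours. For Cyp4a12a r was -0.70 (permutation p = 0.00903, adjusted 0.0722) and rho -0.82 (permutation p = 6.7e-04, adjusted 0.0161), with r = -0.45 without them. For Cyp7b1 r was -0.56 (permutation p = 0.0359, adjusted 0.144) and rho -0.72 (permutation p = 0.00516, adjusted 0.031). No relation with the hepatocyte mean or with Prom1 passed after adjustment, and the part of tumour composition in these levels was not tested.

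**Figure D4:**
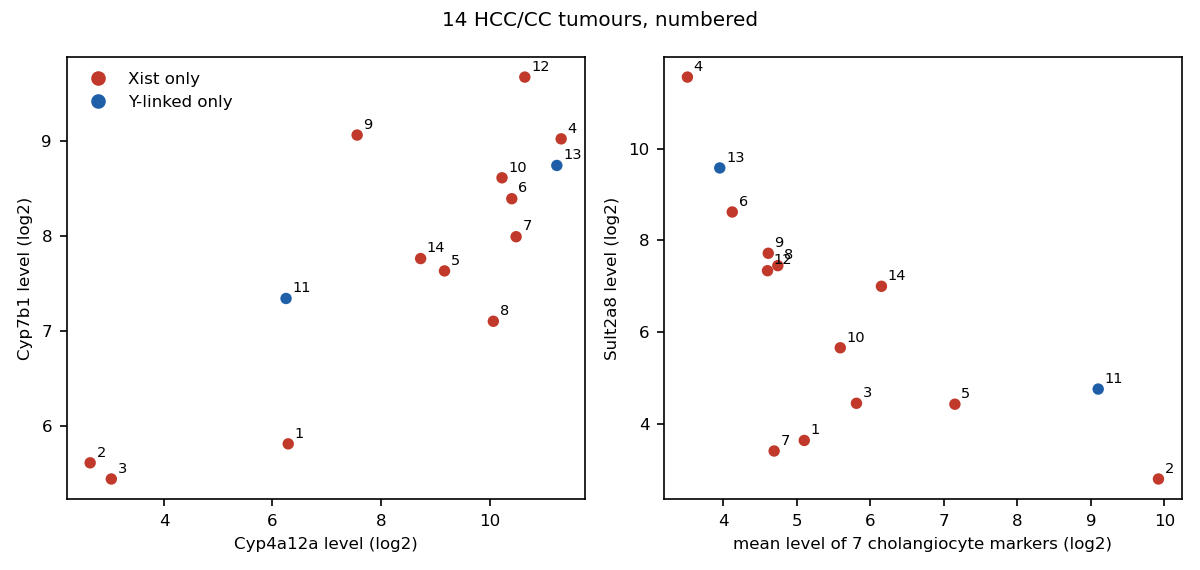
Levels (log2) in the 14 numbered HCC/CC tumours, Cyp7b1 against Cyp4a12a on the left and Sult2a8 against the mean of 7 cholangiocyte markers on the right; colours give the sex-linked transcripts detected. Tumours 2 and 3 lie apart at low Cyp4a12a, and tumours 2 and 11 have the highest cholangiocyte means.

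Genes outside the set whose levels followed the mean of the 8 genes most closely over the 14 HCC/CC tumours, among 1510 genes with an SD of at least 1, were the transporter Slc22a27 (r = 0.92), the carboxylesterase Ces1e, the fatty acid synthesis enzyme Acaca and Gpd2 (r = 0.91 each), and Mup5 (r = 0.90). They are the top of a ranking and carry no p. The mean includes Mup3, which fell into separate clusters and had the widest spread of the set (SD 3.77). It also includes Hsd3b5, Elovl3 and Slco1a1, with medians in the low range. How far these r-values rest on Mup3 was not tested, nor whether Mup5 and Mup3 probe sets read shared transcripts. Slc22a27 is itself on the female-biased list and was low in untreated liver (2.85 to 3.53, n = 5), while it reached 9.55 in the tumours. Ces1e stood at 9.84 in untreated, 5.91 in DDC-treated and 4.78 in newborn liver (means). Over the 29 group means the closest were Cyp2d13 (r = 0.89), Gm2788 and Serpina4-ps1 (0.85 each), Nlrp12 (0.81) and Slc22a7 (0.80), a description over groups that share arrays of the same organs. Serpina4-ps1 measured 11.20 in untreated liver and 2.78 after DDC, and 2.55 to 7.03 in HCC/CC.

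Outside liver, 1 gene of the set was high in kidney and prostate cells. Cyp4a12a measured 9.71, 9.55, 9.63 and 9.49 in the 4 kidney samples and 9.03, 9.07 and 9.82 in the 3 prostate samples. The kidney samples and 1 prostate sample lay inside the untreated liver range, whose lowest value was 9.09, and all were above the salivary gland (4.26, 5.99 and 5.94). Lung, small intestine, stomach and uterus were low, none above 3.08. Kidney exceeded the mean of 6 other organs by 5.27 ± 0.50 (limma adjusted p = 5.8e-11), a 38.6-fold difference. The mean of the 6 includes prostate, which was about as high as kidney, and was 3.33 over the 5 organs without it. Of 12909 genes tested 16.4% were called higher and 18.3% lower. The probe set may also read the near-identical Cyp4a12b, so the 2 genes cannot be separated. All kidney and prostate samples had Y-linked transcripts without Xist, and all 8 proximal tubule markers measured were higher in kidney.

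Only 3 of the 8 genes passed the filter in that comparison. Mup3 was called lower in kidney (-1.45 ± 0.48, limma adjusted p = 0.0107) although it was low there (3.07 to 3.42) and in most other organs. Mup3 passed the filter only through stomach, which fixed its direction, so nothing is read from this call. Cyp7b1, which was not called, passed only through other organs than kidney. The stomach samples measured 12.22 and 10.51, both below the lowest untreated liver sample, and the mean over the other 5 organs was 3.32. The Mup3 probe set can bind transcripts of several near-identical Mup genes. Alb in the stomach samples was 7.85 and 8.60, far below liver, and Hsd3b5, Slco1a1 and Serpina12 were low in both. Gastric adenomas had Mup3 above the low range in all 7 tumours (5.53, 6.34 and 9.34), gastric adenocarcinomas had none above 3.12, and 1 of 3 small intestinal adenomas measured 8.58. Of the pathway genes 4 of 13 were higher in kidney, among them Ghr (2.75 ± 0.42), and 6 lower, led by Socs3 (-4.62 ± 0.42), Igf1 (-2.72 ± 0.32) and Socs2 (-2.48 ± 0.26).

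**Figure D5:**
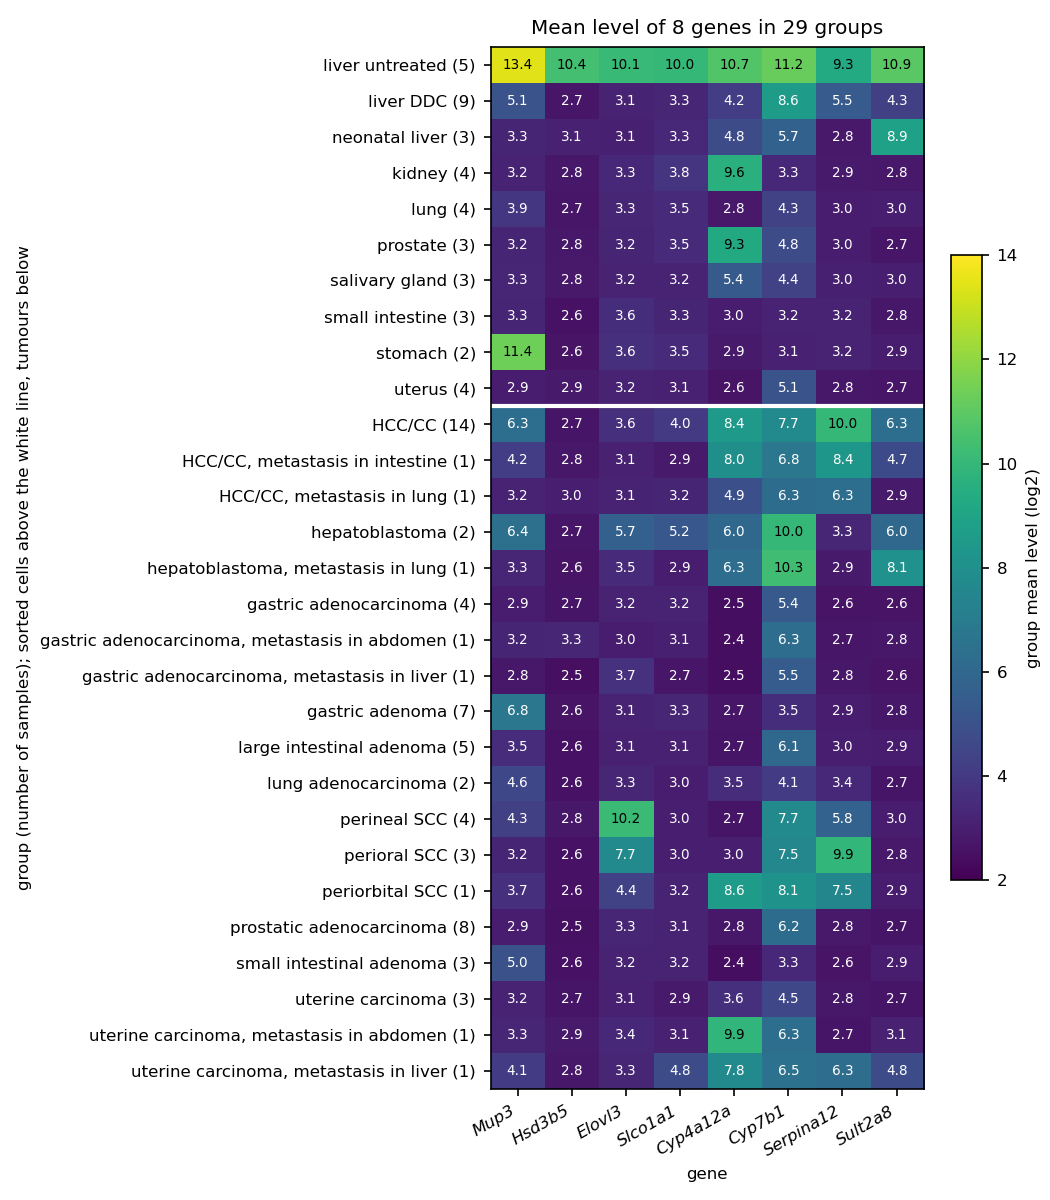
Mean level (log2, colour and printed value) of the 8 genes in the 29 groups, sorted cells above the white line and tumours below, with the number of samples in brackets. Untreated liver is high for all 8 genes, and single genes are high in stomach (Mup3), kidney and prostate (Cyp4a12a) and squamous cell carcinomas (Elovl3, Serpina12, Cyp7b1).

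Squamous carcinomas had 3 genes of the set above the internal tumours: Elovl3 in all 7 tumours, Serpina12 in 5 of 7, and Cyp7b1, which stayed below untreated liver. Elovl3, known from sebaceous glands and brown fat as well as liver, measured 10.06, 10.38, 9.34 and 10.88 in perineal and 8.39, 7.24 and 7.57 in perioral tumours. The 7 groups of internal tumours outside liver had none above 3.62 in 32 tumours, so the groups did not overlap. Elovl3 and Serpina12 passed the filter only through the squamous groups, so their p-values are again from the fit with no filter. Elovl3 was 5.76 ± 0.30 higher in the squamous carcinomas (limma adjusted p = 8.5e-22 with no filter), a 54.2-fold difference. Of 12426 genes tested with the filter 9.79% were called higher and 11.4% lower. Serpina12 measured 9.83, 10.92 and 9.04 in perioral tumours and 8.06, 2.96, 8.78 and 3.29 in perineal ones, against at most 3.96 in the internal tumours, and differed by 4.98 ± 0.62 (limma adjusted p = 3.1e-09 with no filter). Perineal tumours 2 and 4 were in the low range for it. Cyp7b1 lay between 7.09 and 8.16 in the 7 squamous tumours and differed by 2.89 ± 0.40 (limma adjusted p = 3.9e-08), overlapping the top of the internal tumours at 7.20.

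Mup3, the other gene that passed the filter, was not called (-0.39 ± 0.98, limma adjusted p = 0.766). The remaining 4 genes were low in all 7 squamous tumours. The hepatocyte list was low there, with means of at most 4.16 per tumour, and of 4 sebaceous and brown fat markers measured Cidea was higher (4.08 ± 0.76), while Mc5r and Ucp1 were in the low range. Of 10 pathway genes tested 0 were higher and 2 lower in the squamous tumours, Socs2 (-2.65 ± 0.31) and Jak2 (-1.36 ± 0.17). The single periorbital tumour had Cyp4a12a at 8.64, Cyp7b1 at 8.13, Serpina12 at 7.50 and Elovl3 at 4.37. The order of group means for Serpina12 was HCC/CC (9.99), perioral carcinoma (9.93) and untreated liver (9.34), 3 groups whose samples overlap. For Elovl3 perineal carcinoma (10.16) and untreated liver (10.08) overlap in the same way, and hepatoblastoma (5.68) follows perioral carcinoma (7.73) with an overlap.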

How the data were processed

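The authors deposited log2 values, a scale inferred from the lowest (1.85) and highest (14.36). Partek 6.6 made them, per the submitters' processing notes. The sources used here do not give the background correction or normalization. The median of an array was 3.82 to 4.24, and no scaling was added. The number of arrays limits the precision. Per the labels' protocols, sorted cells were extracted with PicoPure and tumours with RNeasy.

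Of 45141 probe sets, 28898 named 1 gene each, 551 several and 15588 none, and 104 were controls. The other probe sets followed the chosen one for Slco1a1 (r = 0.98 over all samples), Serpina12 (0.86) and, for 1 of 2, Cyp7b1 (0.97), while the last Cyp7b1 set was low throughout (0.06). Group differences came from limma (version 3.58.1, R 4.3.3), fitted over 40 sorted samples, over 55 primary tumours (without the single periorbital one), and over untreated liver, HCC/CC and hepatoblastoma. Genes with a group mean above the 40th percentile were tested, with Benjamini-Hochberg adjustment over all of them, after a check on simulated data. A gene low on either side of a comparison passed only through the other side. This fixed its direction, also for genes of the lists. Two-sided permutation tests drew 100000 resamples (Python 3.11.15, numpy 2.4.6, scipy 1.17.1). The 8 genes, the gene lists and the tests were chosen with earlier results of these data known. The named genes are the 8, Prom1, sex-linked transcripts, up to 4 genes with the largest difference per list, and the 5 closest in each likeness ranking.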

Additional observations from a re-analysis of the deposited data

Results flagged for a closer look

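In groups of 4 to 10 samples, 27 combinations of a gene and a group were examined, those with their highest sample above 4.0. In 3 of them a sample lay far from the others of its group. They are Mup3 in lung cells sample 4 (5.64), Cyp7b1 in lung cells sample 1 (5.99) and Cyp4a12a in prostatic adenocarcinoma 3 (4.36). Each entered only through that sample, as the others of its group were below 4.0. A chance rate of about 1 in 20 therefore does not apply, and nothing is read from the count.

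The metastases of gastric and uterine tumours entered no comparison, and some exceeded every sample of sorted cells from the organ of origin. The gastric metastases measured 6.28 (abdomen) and 5.51 (liver) for Cyp7b1, against at most 3.43 in stomach cells. Primary gastric adenocarcinomas, dissected like the metastases, measured 4.90, 5.66, 4.66 and 6.20, so the liver metastasis lay inside their range. The uterine metastasis in abdomen measured 9.92 for Cyp4a12a and 6.34 for Cyp7b1, with Alb low at 3.13. Primary uterine carcinomas measured 5.76, 2.76 and 2.38 for Cyp4a12a and 5.93, 3.10 and 4.59 for Cyp7b1. The uterine metastasis in liver measured 7.76 for Cyp4a12a, 6.53 for Cyp7b1, 6.27 for Serpina12, 4.81 for Sult2a8 and 4.77 for Slco1a1. Its Alb was 13.39, just under the lowest untreated liver sample at 13.48. The part of liver RNA in these levels was not tested. Each metastasis is 1 sample.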

How the results depend on the processing

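Normalization, filter, summary of probe sets, samples in the fit, weights, prior, a sex-linked covariate and single samples were varied in turn. The settings with tumours chosen by Xist or Y-linked transcripts, without DDC sample 5 and without untreated samples 1 and 2 were added after seeing the data. The count of genes of the set called in HCC/CC against hepatoblastoma was 3, and 1 with only these groups in the fit, with array weights, or with the Y-linked HCC/CC tumours alone. Over all genes that comparison gave 658 calls, 186 with only its groups, 74 with array weights and 1031 without hepatoblastoma 2. DDC against untreated liver gave 2372, and 4093 without untreated samples 1 and 2. Hepatoblastoma against untreated liver gave 867, and 72 with only its groups, 210 and 513 without hepatoblastoma 1 or 2, and 1423 without untreated sample 1. Its median over the set ranged from -7.24 to -2.52 with a hepatoblastoma left out. The 1 called pair among the 6 given within HCC/CC became 4 with median centring and 0 without the farthest tumours. The 1 called marker relation became 4 with median centring, and 0 with the mean of probe sets, without the farthest tumours or in tumours with Xist alone. The cause was not tested. In 176 other cases the counts and medians kept their call or stayed within the replicate spread, and 0 results reversed. No paired analysis was possible because the labels give no replicate numbers that groups share.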
